A study of Mus musculus with 2 samples.

Results

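The genes described here are 34 genes of cholesterol and fatty acid synthesis in CMT93 mouse carcinoma cells, 21 for sterols and 13 for fatty acids. They were chosen as a list of symbols by what their proteins do, with earlier results of these data known. Each was found on the arrays by its exact name among the non-control probes. All 34 were present among 34648 names on the array, and all 34 were well above background on both arrays, as were 20328 names in all. CMT93 is an established line from a rectal carcinoma of the mouse (strain C57BL/ICRF, age given as 19 months). One array held cells given lipopolysaccharide (LPS), a glycolipid that Gram-negative bacteria carry in their outer membrane. The dose was 3 µg/mL and the exposure 24 h, and the other array held control cells. Both were grown in DMEM, and total RNA was labelled with Cy3. With 1 array per group, no difference below has a replicate check and no test between the groups was possible. A lower signal from fewer cells of a kind and one from less RNA per cell cannot be told apart in such bulk RNA.

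Cholesterol is built from acetyl-CoA through mevalonate, farnesyl diphosphate, squalene and lanosterol. Fatty acids are built from the same precursor by acetyl-CoA carboxylase and fatty acid synthase. Once joined to coenzyme A, they can be desaturated and elongated. SREBP transcription factors, encoded by Srebf1 and Srebf2, are escorted by Scap and held back by Insig proteins when sterols are plentiful. After release they act on promoters of many of these genes, often beside NF-Y, which binds CCAAT boxes, and Sp1, which binds GC boxes. Intestinal epithelium both makes and takes up cholesterol.

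The promoters of 4 sterol genes are shown because Hsd17b7 and Sc5d were among the highest and Insig1 among the lowest of the sterol set on the LPS array. They stand beside Hmgcs1, which encodes an early enzyme of the pathway and has a match to the core of the sterol regulatory element. Each run is the 250 bases before the RefSeq start (GRCm38.p6), 5′ to 3′ on the gene's strand. Capitals mark matches on either strand to the sterol regulatory element core CACNCCA, the CCAAT box CCAAT, the E-box CACGTG and the GC box GGGCGG.
Hmgcs1: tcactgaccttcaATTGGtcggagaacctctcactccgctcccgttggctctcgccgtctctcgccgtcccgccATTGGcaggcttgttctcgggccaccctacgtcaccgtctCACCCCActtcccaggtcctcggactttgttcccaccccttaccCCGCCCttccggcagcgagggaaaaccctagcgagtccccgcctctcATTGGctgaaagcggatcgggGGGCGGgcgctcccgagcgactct
Hsd17b7: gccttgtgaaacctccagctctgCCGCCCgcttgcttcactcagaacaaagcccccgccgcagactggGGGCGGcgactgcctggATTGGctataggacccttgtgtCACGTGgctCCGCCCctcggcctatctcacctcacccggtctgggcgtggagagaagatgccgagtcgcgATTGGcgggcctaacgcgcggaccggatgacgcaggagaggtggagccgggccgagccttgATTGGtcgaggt
Sc5d: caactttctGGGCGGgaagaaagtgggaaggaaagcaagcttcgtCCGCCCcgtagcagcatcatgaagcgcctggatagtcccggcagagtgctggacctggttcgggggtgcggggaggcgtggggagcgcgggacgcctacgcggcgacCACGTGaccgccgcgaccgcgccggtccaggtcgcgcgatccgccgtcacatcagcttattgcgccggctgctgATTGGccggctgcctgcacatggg
Insig1: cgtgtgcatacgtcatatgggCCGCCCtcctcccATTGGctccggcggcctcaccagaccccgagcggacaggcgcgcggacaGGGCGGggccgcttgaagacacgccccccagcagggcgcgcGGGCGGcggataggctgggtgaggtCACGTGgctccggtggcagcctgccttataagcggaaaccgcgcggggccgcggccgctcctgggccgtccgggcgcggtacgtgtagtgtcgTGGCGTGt
The Hmgcs1 window is chr13:119690101-119690350 on the plus strand, with a core match that starts 136 bases before the gene's start, 3 CCAAT boxes and 2 GC boxes. The Hsd17b7 window is chr1:169969206-169969455 on the minus strand, with 3 CCAAT boxes, 1 E-box and 3 GC boxes. The Sc5d window is chr9:42264301-42264550 on the minus strand, with 1 CCAAT box, 1 E-box and 2 GC boxes. Insig1 has its window at chr5:28071162-28071411 on the plus strand, with 1 core match that starts 8 bases before the gene's start, 1 CCAAT box, 1 E-box and 3 GC boxes. No base in these 4 windows belonged to 2 matches. Hsd17b7 and Sc5d, which were higher on the LPS array, and Insig1, which was lower, thus all held a CCAAT box, an E-box and a GC box.

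CCAAT and GC boxes were common in the promoters of the sterol genes. For both motifs the share of the fatty acid genes lay nearer to that of the measured genes. Promoters were listed for 27 of the 34 genes, 17 sterol and 10 fatty acid genes, as windows from 250 bases before the start to 50 bases after it. CCAAT stood in 16 of the 17 sterol genes and 6 of the 10 fatty acid genes, against 42.7% of the 10541 measured genes with a window. GGGCGG stood in 16 of the 17 sterol genes and 5 of the 10 fatty acid genes, against 64.1% of the measured genes. CACGTG stood in 5 sterol genes and 1 fatty acid gene, against 11.2% of the measured genes. The core CACNCCA stood in 3 sterol genes and 3 fatty acid genes, against 21.1% of the measured genes. Over all 32851 windows in the table the shares were 37.4% for CCAAT, 35.7% for GGGCGG, 7.15% for CACGTG and 18.4% for CACNCCA. These are matches of letters in a window, and binding was not measured.

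**Figure D1:**
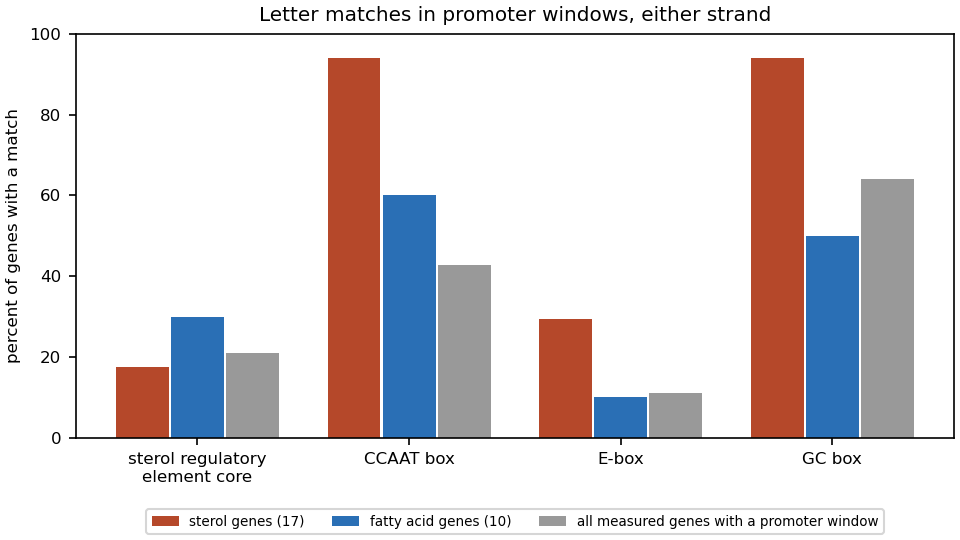
Percent of genes with at least 1 match to each motif, on either strand, in RefSeq windows of 300 bases (y axis, from 0), for 17 sterol genes, 10 fatty acid genes and the 10541 measured genes with a window. CCAAT and GC boxes each stood in 16 of the 17 sterol genes, and the core of the sterol regulatory element stood in 3.

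Sterol and fatty acid genes were mostly slightly higher in LPS-treated cells than in control cells, and none differed by as much as 1.5-fold. The sterol genes had a median log2 difference, LPS minus control, of 0.11, and the fatty acid genes one of 0.16, where all 20328 measured genes had a median of -0.02. Of the sterol genes, 17 of 21 (81.0%) stood above 0, and of the fatty acid genes 9 of 13 (69.2%), beside 44.6% of all measured genes. The lower and upper quartiles were 0.05 and 0.23 for sterol genes, -0.03 and 0.25 for fatty acid genes, and -0.14 and 0.10 for all measured genes. At least 1.5-fold differences were seen for 0 of 34 genes in either direction, while 3.59% of all measured genes were that much higher and 2.67% that much lower. Beyond 2-fold the count was again 0, beside 1.46% higher and 0.571% lower. At a threshold chosen after the values were seen, 25% higher on the LPS array or, as the same ratio, 20% lower, 5 of 34 were higher (Sqle, Hsd17b7, Sc5d, Acsl1 and Acsl4) and 0 were lower. Of all measured genes 8.79% were past it upward and 8.78% downward.

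Bright probes differed less than dim ones across the array, and most of the genes here were bright. Among the 10164 measured genes at or above the median brightness, the median log2 difference was -0.01 and 46.3% stood above 0. Of those 10164 genes, 682 were past the same threshold upward and 309 downward. Bright genes thus leaned upward at this threshold, where all measured genes were nearly even. The set thus stood above the middle of the array by a small amount, and its members stayed within the range that many other genes covered. Repeated spots of one probe give the error used here. It is written after ± below as the median SD of the log2 difference over repeated probes in the same of 4 brightness classes. This ran from 0.03 for the brightest class to 0.11 for the dimmest, over 57 or 58 repeated probes each. SDs of single probes reached 0.06 in the brightest class and 0.37 in the dimmest. The error covers the slide and not the cultures.

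**Figure D2:**
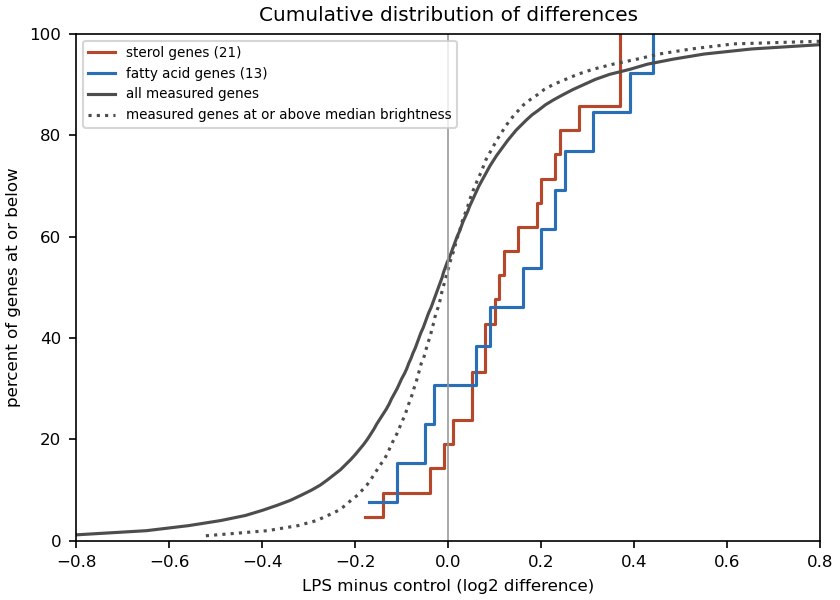
Cumulative share of genes (y axis, percent) by log2 difference, LPS minus control (x axis), for the 21 sterol genes, the 13 fatty acid genes and all 20328 measured genes. Both member curves lie to the right of the curve of all measured genes over most of their length, with medians of 0.11 and 0.16 against -0.02.

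The 6 mevalonate pathway genes of the list were all slightly higher on the LPS array on their brightest probes. These 6 genes had a median log2 difference of 0.14. The HMG-CoA reductase gene is not on the list and was not read. Hmgcs1, which condenses acetyl-CoA and acetoacetyl-CoA to HMG-CoA, had a scaled signal of 25527 in LPS-treated cells and 22419 in control cells, a log2 difference of 0.19 ± 0.03. Mvd, which decarboxylates mevalonate diphosphate, had 4306 in LPS-treated cells and 3642 in control cells, a difference of 0.24 ± 0.04. Scaled signal is the array's intensity after both arrays were brought to one 75th percentile, and it is compared only between arrays for one probe. Fdps, which makes farnesyl diphosphate, stood at 85710 in LPS-treated cells and 77106 in control cells, a difference of 0.15 ± 0.03. The isomerase gene Idi1 stood at 11879 in LPS-treated cells and 10901 in control cells, a difference of 0.12 ± 0.03. The kinase genes were nearest to 0 of the 6. Mvk, the mevalonate kinase gene, had 17168 in LPS-treated cells and 16212 in control cells, at 0.08 ± 0.03. Pmvk, which encodes phosphomevalonate kinase, had 16035 in LPS-treated cells and 15509 in control cells, at 0.05 ± 0.03. On their other probes Mvk stood at 0.00 and Pmvk at 0.02, and Hmgcs1 stood at 0.26 on a dim one.

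The steps from farnesyl diphosphate to lanosterol had a median of 0.28 over 3 genes, all above 0. Sqle, which encodes squalene epoxidase, a rate-limiting enzyme of the pathway, had a scaled signal of 30541 in LPS-treated cells and 23577 in control cells. That is 1.30-fold, a log2 difference of 0.37 ± 0.03, and 7.37% of all measured genes were at least as high. The Sqle probe lies at chr15:59162688-59162747 on the plus strand (mm9). Lss, whose product closes the rings to form lanosterol, had 1805 in LPS-treated cells and 1483 in control cells, a difference of 0.28 ± 0.04 (1.22-fold). Fdft1, which encodes squalene synthase, was nearly level on its brightest probe, at 7515 in LPS-treated cells and 7254 in control cells, a difference of 0.05 ± 0.03. Its other, dim probe had 35.1 in LPS-treated cells and 28.2 in control cells, a difference of 0.32. With the median over its probes Fdft1 stood at 0.18, so its place beside Lss depends on the probe taken.

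**Figure D3:**
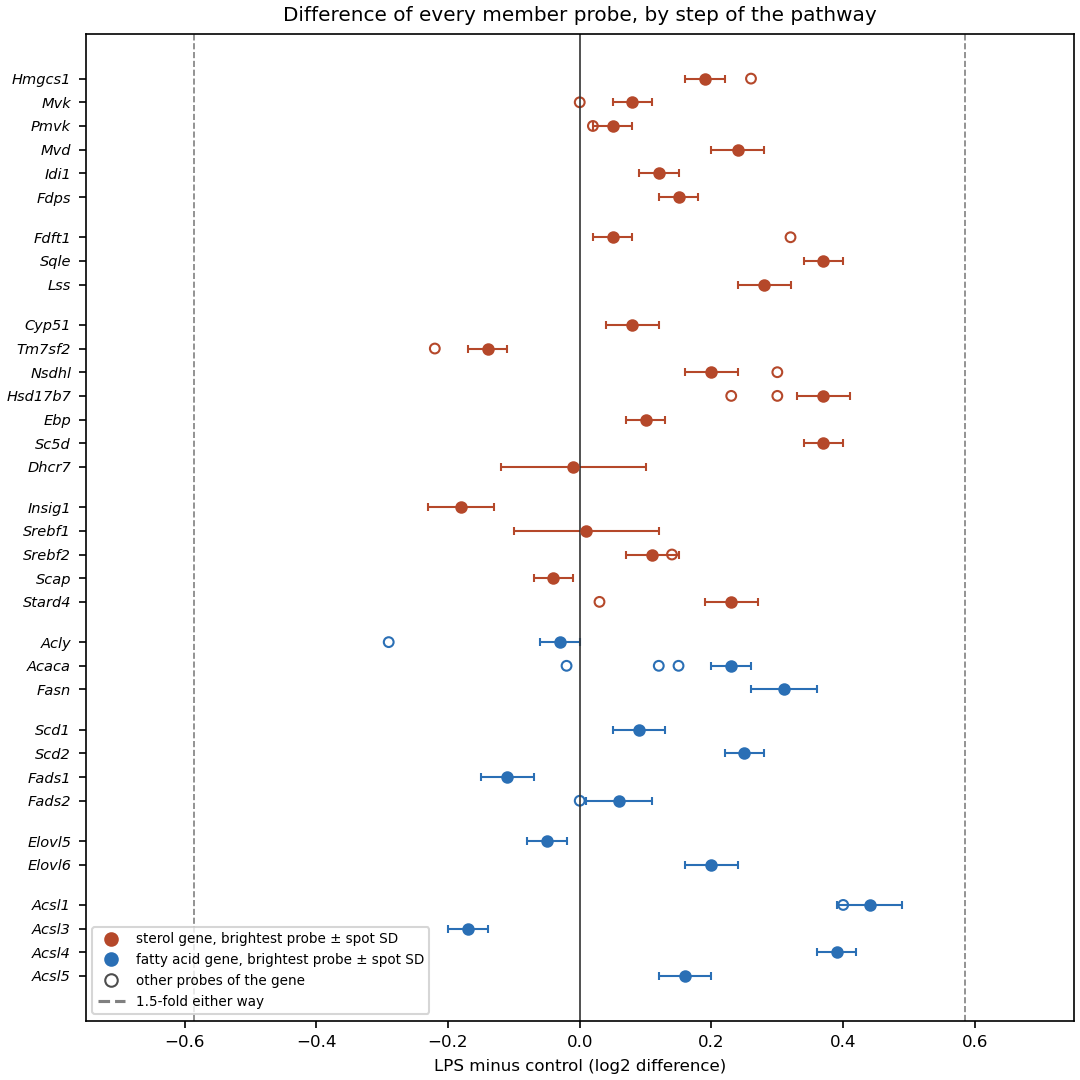
Log2 difference, LPS minus control (x axis), for each of the 34 genes on its brightest probe, grouped by role. Bars give the median SD over repeated spots for probes of similar brightness. The values run from -0.18 for Insig1 to 0.44 for Acsl1, and no gene reaches 1.5-fold.

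The steps from lanosterol to cholesterol were mixed, with a median of 0.10 over 7 genes and 5 above 0. Hsd17b7, a ketoreductase in the removal of sterol methyl groups, had 2381 in LPS-treated cells and 1841 in control cells, a log2 difference of 0.37 ± 0.04 (1.29-fold). Its other probes stood at 0.23 and 0.30. Sc5d, which encodes a sterol desaturase, had 6628 in LPS-treated cells and 5116 in control cells, a difference of 0.37 ± 0.03 (1.30-fold). Of all measured genes, 7.42% were at least as high as Hsd17b7 and 7.36% at least as high as Sc5d. The Hsd17b7 probe lies at chr1:171880203-171880262 and the Sc5d probe at chr9:42062857-42062916, both on the minus strand (mm9). Nsdhl, a sterol dehydrogenase that acts in the same demethylation, had 3439 in LPS-treated cells and 2996 in control cells, a difference of 0.20 ± 0.04. It stood at 0.30 on its other probe. Hsd17b7, Sc5d and Nsdhl were the highest of the 7.

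The other 4 genes of this stretch lay nearer to 0 or below it. The sterol isomerase gene Ebp had 34363 in LPS-treated cells and 32044 in control cells, a difference of 0.10 ± 0.03. Cyp51, the lanosterol demethylase gene, had 2657 in LPS-treated cells and 2506 in control cells, at 0.08 ± 0.04. Dhcr7, which encodes the last reductase of one branch of the pathway, had 433 in LPS-treated cells and 437 in control cells, at -0.01 ± 0.11, so the arrays do not separate it from 0. Tm7sf2, which encodes a sterol reductase, was the only 1 of the 7 below 0 by more than the spot error. It had 9161 in LPS-treated cells and 10101 in control cells, a difference of -0.14 ± 0.03, and its other probe had 1780 in LPS-treated cells and 2074 in control cells, a difference of -0.22.

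Genes that sense and carry sterols had no common direction, with a median of 0.01 over 5 genes. Insig1, whose product retains Scap and the SREBPs in the endoplasmic reticulum and is itself a known SREBP target, lay with Acsl3 at the low end of the 34 genes. It had a scaled signal of 502 in LPS-treated cells and 567 in control cells, a log2 difference of -0.18 ± 0.05, and 19.8% of all measured genes were at least as low. Its probe lies at chr5:28404246-28404305 on the plus strand (mm9). Insig1 thus lay below 0 while most of the synthesis enzymes lay above it. Insig2, read with the other sterol genes and named here after its value was seen, went the other way. It had 3707 in LPS-treated cells and 3423 in control cells, a difference of 0.11 ± 0.04, with 0.17 on its other probe. Stard4, a soluble sterol carrier, was the highest of the 5 at 3121 in LPS-treated cells and 2661 in control cells, a difference of 0.23 ± 0.04. Its dimmer probe, at 283 in LPS-treated cells and 278 in control cells, differed by 0.03. Srebf2, which encodes the SREBP with the larger part in sterol synthesis, had 2651 in LPS-treated cells and 2455 in control cells, a difference of 0.11 ± 0.04. Its other probe stood at 0.14. Srebf1, which encodes the SREBP with the larger part in fatty acid synthesis, was level at 395 in LPS-treated cells and 392 in control cells, a difference of 0.01 ± 0.11. Scap, the escort, had 7137 in LPS-treated cells and 7327 in control cells, a difference of -0.04 ± 0.03.

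**Figure D4:**
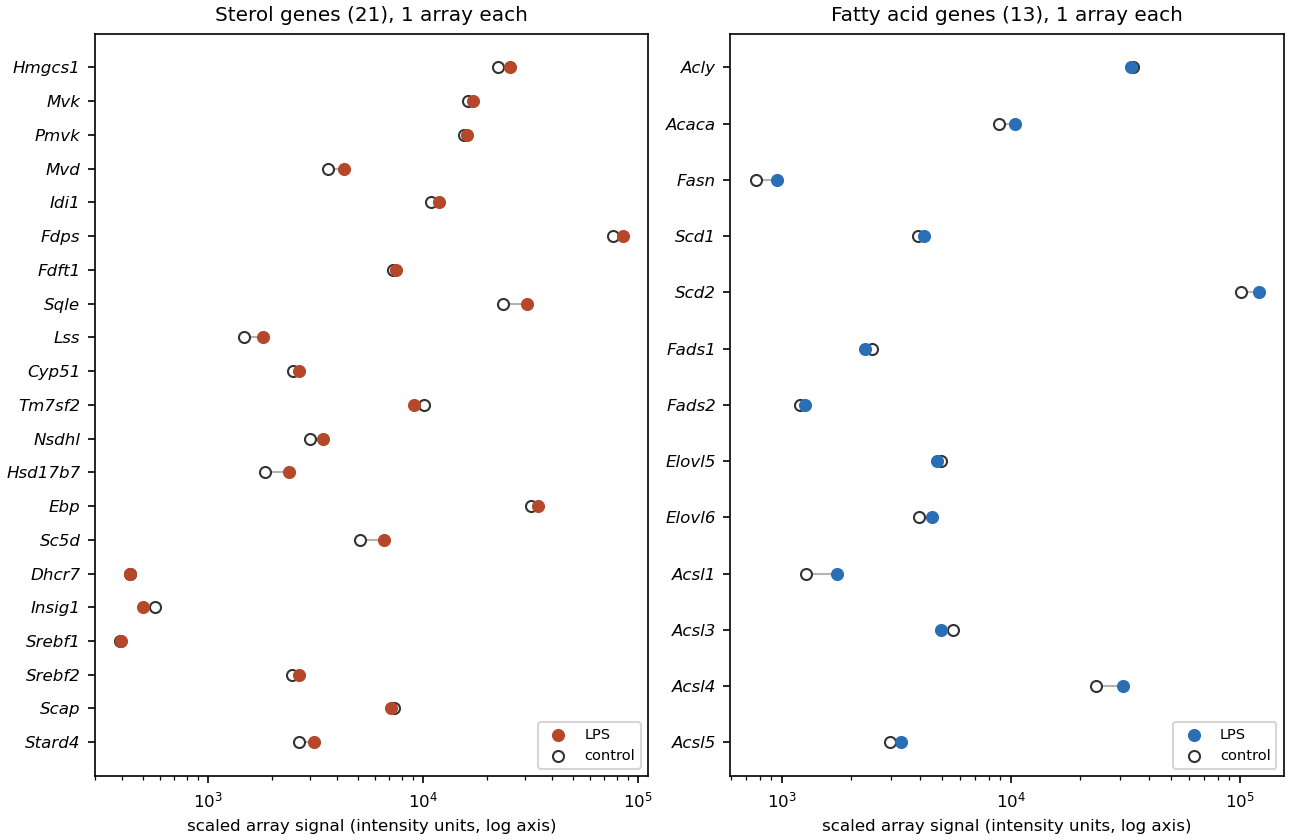
Scaled signal of the brightest probe of each of the 34 genes (log axis) on the LPS array and on the control array, 1 point per array, sterol and fatty acid genes apart. The points of a gene lie close together for all 34 genes, which stay within 1.5-fold, and signals of different genes are not to be compared, since each probe binds with its own strength.

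The genes that build the fatty acid chain had a median log2 difference of 0.23 over 3 genes. Fasn, the fatty acid synthase gene, had 950 in LPS-treated cells and 768 in control cells, a difference of 0.31 ± 0.05 (1.24-fold), just short of 25% higher. Its probe lies at chr11:120667666-120667725 on the minus strand (mm9). Acaca, which encodes the carboxylase that makes malonyl-CoA, had 10390 in LPS-treated cells and 8877 in control cells, a difference of 0.23 ± 0.03 (1.17-fold). Acly, which encodes ATP citrate lyase and supplies cytosolic acetyl-CoA, was level on its brightest probe, with 33419 in LPS-treated cells and 34124 in control cells, a difference of -0.03 ± 0.03. Its dim probe had 179 in LPS-treated cells and 219 in control cells, a difference of -0.29. Fasn and Acaca thus stood above 0 by more than the spot error and Acly did not.

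Acaca had 4 probes, and the starts of the brightest pair are shown because they are nearly the same molecule. Each run is the first 30 bases of a probe of 60.
Acaca brightest: gcttcagtccaatgcactcttctcacgttt
Acaca next: cttcagtccaatgcactcttctcacgtttt
Acsl1 brightest: gcctaacttcatactcgtattcttaattgc
Acsl1 other: agagctacggaactatttcaggtcgcagat
The Acaca pair lies at chr11:84215093-84215152 and chr11:84215094-84215153 (mm9), an offset of 1 base, and 57 of their 59 overlapping bases were equal. Their log2 differences of 0.23 and 0.15 therefore are not separate measurements of the gene. The remaining Acaca probes were dim and stood at 0.12 and -0.02. The Acsl1 probes, at chr8:47621232-47621291 and chr8:47619774-47619833 (mm9), share no position, and they stood at 0.44 and 0.40.

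Activation of fatty acids by joining them to coenzyme A held values from near the top to near the bottom of the set, with a median of 0.28 over 4 acyl-CoA synthetase genes. Acsl1 had a scaled signal of 1734 in LPS-treated cells and 1278 in control cells, a log2 difference of 0.44 ± 0.05 (1.36-fold), and 5.81% of all measured genes were at least as high. Acsl4, whose product prefers arachidonate and similar polyunsaturated fatty acids, had 31048 in LPS-treated cells and 23617 in control cells, a difference of 0.39 ± 0.03 (1.31-fold). Acsl5, abundant in intestinal epithelium, had 3321 in LPS-treated cells and 2980 in control cells, a difference of 0.16 ± 0.04. In contrast, Acsl3, whose product sits on the endoplasmic reticulum and lipid droplets, had 4965 in LPS-treated cells and 5586 in control cells, a difference of -0.17 ± 0.03. The Acsl4 probe lies at chrX:138752591-138752650 on the minus strand and the Acsl3 probe at chr1:78703500-78703559 on the plus strand (mm9). The 4 synthetase genes thus spread over most of the range that the 34 genes covered. Whether probes of the Acsl, Scd, Fads and Elovl genes also bind transcripts of their relatives was not tested.

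Desaturases and elongases differed little, with medians of 0.08 over 4 genes and 0.07 over 2 genes. Scd2, a stearoyl-CoA desaturase gene, was the highest at 120941 in LPS-treated cells and 101421 in control cells, a difference of 0.25 ± 0.03 (1.19-fold). Its relative Scd1 had 4173 in LPS-treated cells and 3916 in control cells, a difference of 0.09 ± 0.04. Among the desaturases of polyunsaturated fatty acids, Fads2 had 1257 in LPS-treated cells and 1205 in control cells, a difference of 0.06 ± 0.05, with 0.00 on its other probe. Fads1 was the only 1 of these 4 desaturase genes below 0, at 2301 in LPS-treated cells and 2484 in control cells, a difference of -0.11 ± 0.04. Elovl6, which elongates saturated chains, had 4527 in LPS-treated cells and 3955 in control cells, a difference of 0.20 ± 0.04. Elovl5, which elongates polyunsaturated chains, had 4773 in LPS-treated cells and 4958 in control cells, a difference of -0.05 ± 0.03. Over both kinds of enzyme, 4 of 6 genes lay above 0 and all 6 lay within 25% of their control signal.

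Probes of one gene mostly gave one direction. In all, 50 probes named the 34 genes, 50 were well above background on both arrays, and 13 genes had more than 1. The gap between the log2 differences of a gene's 2 brightest probes had a median of 0.08 over these 13 genes and reached 0.27. Over the 4395 measured genes with more than 1 measured probe the median was also 0.08, and the gap reached 2.43. All probes shared a sign for 12 of the 13 genes (92.3%), with Acaca the exception, against 69.0% of the 4395 genes. Some of these signs rest on values within the spot SD of 0. The second probes of Mvk and Fads2 stood at 0.00, that of Pmvk at 0.02 and that of Stard4 at 0.03. The 4395 genes were not matched to the 13 for brightness. The widest gaps were those of Fdft1 at 0.27 and Acly at 0.26, each between a bright and a dim probe, and both medians of the set, 0.11 for sterol and 0.16 for fatty acid genes, are smaller than these gaps.

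Other genes of the same pathways, from lists chosen by function with earlier results of these data known, gave a mixed picture. Of 21 other sterol genes 20 had a signal above background on both arrays, with a median of -0.01. Of these 20, 9 (45.0%) lay above 0, beside 44.6% of all measured genes. At 1.5-fold the count was 0 of 20 either way, beside 3.59% of all measured genes higher and 2.67% lower. The highest was Nr1h3, an oxysterol receptor gene, at 1466 in LPS-treated cells and 1023 in control cells, a log2 difference of 0.52 ± 0.05. Acat2, the cytosolic thiolase that supplies acetoacetyl-CoA, stood at 0.39 ± 0.05. The lowest was Tmem97, a sterol-responsive membrane protein gene, at 16585 in LPS-treated cells and 24545 in control cells, a difference of -0.57 ± 0.03, with -0.57 on its other probe as well, and it was past 1.5-fold in 1 of 10 settings. Mylip, which encodes a ubiquitin ligase of lipoprotein receptors, stood at -0.28 ± 0.11.

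Of 25 other fatty acid synthesis genes 21 had a signal above background on both arrays, with a median of 0.07. Of these 21, 12 (57.1%) lay above 0, beside 44.6% of all measured genes. Past 1.5-fold, 3 of 21 were higher and 0 lower, beside 3.59% of all measured genes higher and 2.67% lower. Ptplb, now named Hacd2, a dehydratase of the elongation cycle, had 10285 in LPS-treated cells and 5907 in control cells, a log2 difference of 0.80 ± 0.03 (1.74-fold), and its other probes stood between 0.70 and 0.75. Acss2, which makes cytosolic acetyl-CoA from acetate, had 1640 in LPS-treated cells and 977 in control cells, a difference of 0.75 ± 0.05, with 0.42 on its other probe, and it was past 1.5-fold in 9 of 10 settings. Ptpla, now Hacd1 and named here after its value was seen, had 3842 in LPS-treated cells and 2466 in control cells, a difference of 0.64 ± 0.04. These 3 lay outside the range of all 34 synthesis genes. The lowest were Fads6 at -0.28 ± 0.11 and Acacb at -0.16 ± 0.11, both dim. Acsl6, also dim, was well above background in control cells (62) but not in LPS-treated cells (3.7). Its control signal was 3.61-fold that of the dimmest probe well above background on the LPS array, and no spot error applies to it.

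Markers of the cell types the culture could hold were read on the same arrays. Of 11 epithelial markers 10 were measured, and their median log2 difference was -0.25. Above 0 stood 0 of 10, beside 44.6% of all measured genes. At least 1.5-fold lower were 3 of 10, beside 2.67% of all measured genes. The lowest were Lgals4, the galectin 4 gene, at 16452 in LPS-treated cells and 45077 in control cells (-1.45 ± 0.03), and the keratin gene Krt20 at -0.92 ± 0.11. The highest were Cdh1, the E-cadherin gene, at -0.01 ± 0.03 and Krt18 at -0.14 ± 0.03. The epithelial markers' summed signal was 668139 on the LPS array and 800678 on the control array, most of it from Krt18, Krt8 and Krt19. Sums here and below are of the signal before scaling, with a 75th percentile of 629 on the LPS array and 649 on the control array. Cdx2 was not well above background on either array. The line thus carried most of the epithelial markers listed. Those measured stood lower on the LPS array by differing amounts, except Cdh1, which was level.

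Of 8 macrophage markers 3 were measured. The receptor gene Csf1r had 1612 in LPS-treated cells and 1551 in control cells (0.06 ± 0.05), the lysosomal gene Cd68 had 1293 in LPS-treated cells and 1048 in control cells (0.30 ± 0.05, with 0.43 on its other probe), and Fcer1g stood at -0.18 ± 0.11. Lyz2, Tyrobp and Laptm5 were above background on neither array, Emr1 on the LPS array only and Ptprc on the control array only, and the list's summed signal was 2981 on the LPS array and 2794 on the control array. Of 7 fibroblast markers 2 were measured, both collagen genes and both higher on the LPS array. Col1a2 had 112 in LPS-treated cells and 59.7 in control cells (0.91 ± 0.11, 1.88-fold, past 1.5-fold in 9 of 10 settings), and Col1a1 had 131 in LPS-treated cells and 104 in control cells (0.33 ± 0.11). Pdgfrb passed the background flag on the LPS array alone, Pdgfra on the control array alone and Col3a1, Dcn and Thy1 on neither, with a list sum of 288 on the LPS array and 223 on the control array. Of 4 hepatocyte markers only Apoc3 was measured, at -0.33 ± 0.11, with list sums of 84 on the LPS array and 108 on the control array. All 4 adipocyte markers were above background on neither, with sums of 18 on the LPS array and 19 on the control array. The part of these marker differences in the differences of the 34 genes was not tested.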

How the data were processed

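The deposited values are spot intensity values of 2 one-colour arrays, made by the authors with Agilent Feature Extraction 10.10.1.1 (background-subtracted and detrended, mm9 probe positions), per the file headers. Each array has 59305 spots that are no controls. On the LPS array 32448 of them lay well above background and on the control array 33091, with 0 saturated. The treatment text is the same for both samples, so the titles assigned the groups, and dose and time were taken to be those of the LPS sample.

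Controls and 223 flagged spots were dropped. The log2 intensity was centred on each array's 75th percentile, spots of a probe were averaged, and the brightest probe of a gene was used. Measured genes are those whose brightest probe passed the background flag on each array. The error is the median, by brightness class, of the SD over spots of repeated probes (230 above background of 339 with at least 9 unflagged spots). A fold for a gene measured on 1 array is a bound against the dimmest probe well above background, or the probe's own signal where higher. Arrays, not spots, limit the precision.

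All 34 genes are named, and the 2 highest and 2 lowest of each other lipid list, with Ptpla and Insig2 added after their values were seen. Of the cell type markers, the epithelial genes named were taken by the same rule, and every measured gene of the other types is named. Members and lists were chosen with earlier results of these data known. Symbols were looked up in RefSeq (GRCm38.p6): all 34 were found, 47 of 50 probes gave the same symbol by accession and 3 had no match. Promoters and motifs came from the same source. Whether probes lie in exons or UTRs was not analysed here.

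Alternatives were normexp with offset 50, quantile normalization, cyclic loess, median centring, the 75th percentile of probes above background, the median over probes, no filter, a looser filter and a correction per slide block, the last chosen after seeing the data. The steps were tested on simulated data. R 4.3.3, limma 3.58.1, Python 3.11.15, numpy 2.4.6, pandas 2.3.3 and matplotlib 3.10.9 were used.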

Additional observations from a re-analysis of the deposited data

How the results depend on the processing

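Under 9 alternatives, 0 of the 34 genes reached 1.5-fold in any. The sterol median was 0.08 with quantile normalization against 0.11 as reported, and lay between 0.10 and 0.13 under the other alternatives. The fatty acid median lay between 0.13 and 0.18. Between 16 and 18 sterol genes and 9 fatty acid genes stood above 0, and 4 to 6 genes were at least 25% higher. Of 306 values of single genes, 282 stayed within the spot SD and 24 did not, and 32 of 34 genes kept one sign. Dhcr7 and Srebf1 changed sign, both near 0.

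The share of all measured genes past 1.5-fold was 2.21% higher and 0.99% lower with normexp, 7.36% and 7.08% with no filter, and 6.61% and 6.2% with the looser filter. Slide blocks shifted the log2 difference by -0.04 to 0.04. No paired analysis was possible because each group has 1 array. The spread between cultures is not measured, and differences of this size have no check against it. Signal limits the dim genes most, with a spot SD of 0.11 for Dhcr7 and Srebf1.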

Other observations

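Genes that store fatty acids and genes that take up or oxidise them differed about as little as the synthesis genes. Of 16 glycerolipid and lipid droplet genes 15 were measurable on both arrays, with a median log2 difference of 0.10. Of these 15, 10 (66.7%) lay above 0, beside 44.6% of all measured genes. At 1.5-fold the count was 0 of 15 either way, beside 3.59% of all measured genes higher and 2.67% lower. The highest were Lpin1, a phosphatidate phosphatase gene, at 437 in LPS-treated cells and 357 in control cells (0.29 ± 0.11), and Plin2, a droplet coat gene, at 73312 in LPS-treated cells and 60757 in control cells (0.27 ± 0.03). The lowest were the acyltransferase gene Agpat2, at 13400 in LPS-treated cells and 15573 in control cells (-0.22 ± 0.03), and the droplet gene Hilpda, at 11363 in LPS-treated cells and 13065 in control cells (-0.20 ± 0.03).

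Of 22 uptake and oxidation genes 19 were measurable on both arrays, with a median of 0.02. Of these 19, 12 (63.2%) lay above 0, beside 44.6% of all measured genes. Of all measured genes, 3.59% were at least 1.5-fold higher and 2.67% at least 1.5-fold lower. Fabp2, the intestinal fatty acid binding protein gene, was the only 1 of the 19 past 1.5-fold, at 175 in LPS-treated cells and 113 in control cells (0.62 ± 0.11, and 0.42 to 0.68 over the alternatives, 9 of 10 settings past 1.5-fold). The transporter gene Slc27a1 stood at 0.22 ± 0.05, the dehydrogenase gene Acadl at -0.13 ± 0.04 and the nuclear receptor gene Ppara at -0.12 ± 0.11, with -0.55 and -0.04 on its other probes. Cd36, a fatty acid uptake receptor gene, was dim and well above background in control cells only, at 31.8 there and 3.69 in LPS-treated cells. Its control signal was 1.85-fold that of the dimmest probe well above background on the LPS array.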
